A study of Mus musculus with 16 samples.

Results

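The transcripts described here are those of 8 genes of YAP and TGF-beta signalling, Ccn1, Ccn2, Ankrd1, Tgfb1, Tgfb2, Tgfbr1, Tgfbr2 and Smad7. They were taken by gene symbol from a matrix of 20525 genes measured by RNA sequencing in mouse kidney, and 8 of the 8 were found and passed the filter on low values. The kidneys came from 8-week-old mice of the background labelled C56BL/6. The 4 groups were C3-/- mice given glycerol, WT mice given glycerol, C3-/- mice given PBS and WT mice given PBS, with 4 libraries in each. Glycerol (50%, 7.5 ml/kg) was injected into a thigh muscle to cause rhabdomyolysis, the breakdown of skeletal muscle that can injure the kidney. The C3-/- label refers to loss of C3, the central component of complement. RNA came from lysed frozen kidney sections 30 µm thick, so each library mixes the cell types of the kidney. The labels give no sampling time after injection, no sex and no description of the C3 deletion. They also do not state that each library is a different animal, and p-values then cover only the library-to-library spread, which may be technical.

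YAP and TAZ are transcriptional coactivators that the Hippo kinases keep out of the nucleus. In the nucleus they bind TEAD factors and switch on a set of genes of which Ccn1, Ccn2 and Ankrd1 are the usual readouts. TGF-beta ligands are secreted in a latent form and signal, once activated, through a receptor pair that phosphorylates SMAD2 and SMAD3, and SMAD7 is an induced inhibitor of that receptor pair. In the kidney both pathways are known for their part in tubular repair and fibrosis after injury, and Ccn2 is a target of both.

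The libraries differed in ways that touch these genes. The sum of normalized counts per library ranged over 25.81 M to 38.39 M, and read depth is unknown. Each sample description ends in a number. In 13 libraries these numbers are 1 to 13 (list 1). The remaining 3, C3-/- glycerol replicates 1 and 3 and WT glycerol replicate 4, carry 4, 5 and 3 a second time (list 2). On the first principal component, which held 45% of the variance, the list 2 libraries scored 96.4 to 220.4, against -58.6 to 39.5 for the list 1 libraries. WT glycerol replicate 4 had 3374 genes listed at 0, against 190 to 982 in the other 15 libraries. All PBS libraries were in list 1. The Y-linked gene Ddx3y had normalized counts of 481.5 to 2302.1 in 11 libraries and at most 1.1 in the other 5, which were C3-/- glycerol replicates 1 and 2 and C3-/- PBS replicates 1, 2 and 3. The X-linked gene Xist had 16098.0 to 35409.9 in these 5 and at most 104.8 in the 11. No WT library was among the 5, so genotype is partly confounded with this signal. C3 itself was not lower under the C3-/- label. Its normalized counts were 1457.3 to 8008.0 in C3-/- glycerol libraries, 1711.7 to 4717.5 in WT glycerol libraries, 563.8 to 1139.7 in C3-/- PBS libraries and 334.9 to 470.5 in WT PBS libraries. The sources used here do not give the removed part of the gene. This signal therefore checks nothing, and each direction below rests on the label. Havcr1, a marker of tubule injury, had 1088.4 to 9458.3 in C3-/- glycerol libraries and 28049.5 to 57981.5 in WT glycerol libraries, and at most 94.5 in any PBS library. Beside the results that follow, values for list 1 alone are therefore given where a member's call or direction, or a list's count of calls, changed there.

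The stretches of DNA just before the start sites of Ccn1 and Ankrd1 are shown because these 2 genes, with Ccn2, were lower in C3-/- than in WT kidney already after PBS (values further on). The letters CATTCC, the core recognised by TEAD factors, were searched on both strands of the 250 bases before each RefSeq start site (GRCm38.p6), and capitals mark the matches. Of the 6 members with an entry in the RefSeq promoter table (Ccn1, Ankrd1, Tgfb1, Tgfb2, Tgfbr1 and Tgfbr2), the letters were found in 2. They occur in 12.6% of 32851 mouse promoter windows of this length. Ccn1 (chr3:145649986-145650235, minus strand) has CATTCC 103 bases before its start.
Ccn1: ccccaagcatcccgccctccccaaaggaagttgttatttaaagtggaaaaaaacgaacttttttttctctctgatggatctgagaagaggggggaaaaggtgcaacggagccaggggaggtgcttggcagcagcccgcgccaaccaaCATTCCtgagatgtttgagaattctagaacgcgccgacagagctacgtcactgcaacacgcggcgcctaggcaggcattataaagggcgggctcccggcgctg
Ankrd1 (minus strand) has the reverse letters GGAATG at 2 places, 210 and 123 bases before its RefSeq start, and 2 or more matches occur in 1.02% of all windows. That stretch lies inside the annotated gene of GENCODE, which starts 255 bases before the RefSeq start, so windows of 30 bases are shown (chr19:36120037-36120066 and chr19:36119950-36119979).
Ankrd1 site 210 bases before the start: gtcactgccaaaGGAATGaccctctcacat
Ankrd1 site 123 bases before the start: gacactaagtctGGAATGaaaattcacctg
Among 4 other motifs searched, the SMAD letters CAGACA (17.1% of windows) were found in Ankrd1, in Tgfb2 and in the second promoter of Tgfbr1. TGANTCA (AP-1, 6.75%), GTCTAGAC (SMAD, 0.167%) and the CArG box (1.47%) were found in none of the 6. The windows of Tgfb1 and Tgfbr2 held none of the 5. A match is a run of letters and not a measured binding site.

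Expressed per kilobase of merged exons, Ccn2 and Ccn1 had the highest levels of the 8 in WT PBS kidney, with 1260 ± 236 and 875 ± 134 normalized counts per kilobase (SD, n = 4). The ranges of mean ± SD of these 2 genes overlapped neither with each other nor with those of the receptor genes. Tgfbr1 (385 ± 26.7) and Tgfbr2 (320 ± 14.7) followed, then Smad7 (177 ± 22.4). Tgfb1 (50.5 ± 5.18) and Ankrd1 (40.5 ± 8.07) overlapped in mean ± SD, and Tgfb2 (13.2 ± 2.33) was the lowest. In WT glycerol kidney Ankrd1 stood at 339 ± 128 per kilobase, within the spread of Tgfbr2 (492 ± 224). All other values below are normalized counts per gene, which compare libraries and not genes.

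**Figure D1:**
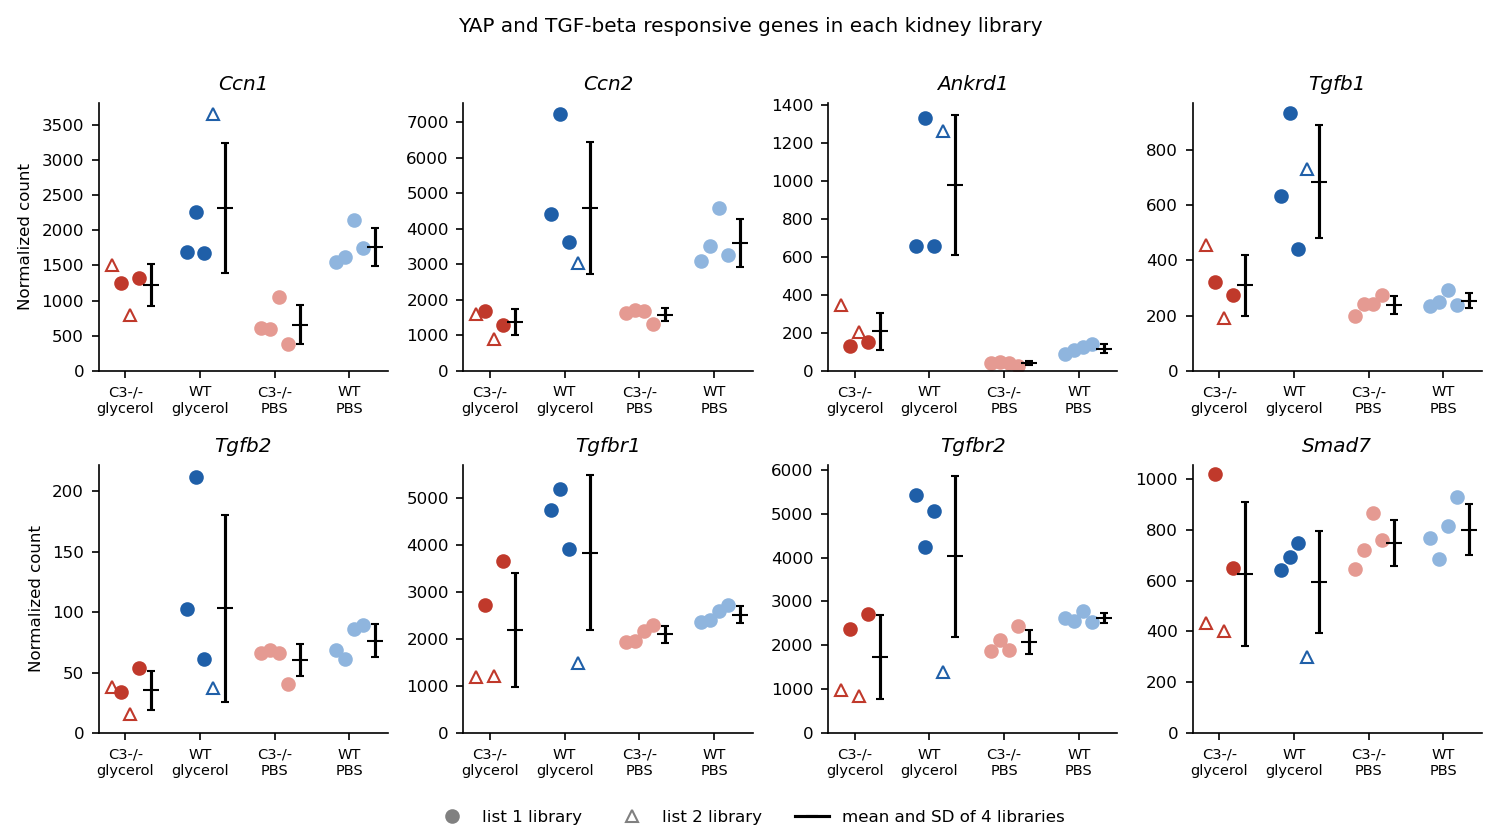
Normalized counts of the 8 genes in each library, by group (x axis), with circles for list 1 libraries, open triangles for list 2 libraries and a line for the mean and SD of 4. Ccn2 is at most 1700.0 in the libraries labelled C3-/- and at least 3048.3 in the WT libraries, Ankrd1 is high in WT glycerol libraries, and Tgfbr1, Tgfbr2 and Smad7 are lowest in the list 2 libraries.

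Ccn1 encodes a secreted matrix protein of the CCN family (ENSMUSG00000028195; GRCm38 chromosome 3, 145646976 to 145649981, minus strand). In replicates 1 to 4 it had 1505.2, 1252.1, 798.3 and 1322.2 normalized counts in C3-/- glycerol libraries, against 1686.2, 2256.7, 1682.9 and 3649.7 in WT glycerol libraries. It had 604.8, 595.6, 1047.4 and 382.3 in C3-/- PBS libraries, against 1542.1, 1621.2, 2151.3 and 1748.7 in WT PBS libraries. Every library labelled C3-/- was below every WT library under the same treatment, and the lowest values of all were in C3-/- PBS libraries.

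Ccn2 encodes the related protein known as connective tissue growth factor (chromosome 10, 24595442 to 24598683, plus strand). It had 1607.1, 1691.4, 901.9 and 1290.1 in C3-/- glycerol libraries, against 4417.2, 7223.4, 3611.4 and 3048.3 in WT glycerol libraries. In PBS libraries it had 1620.6, 1700.0, 1689.1 and 1318.6 under the C3-/- label, against 3086.2, 3510.3, 4588.1 and 3252.2 in WT. The 8 libraries of 1 genotype did not overlap with the 8 of the other, whatever the treatment. An exon of the antisense gene Gm15270 shares 360 bases with the exons of Ccn2, the largest overlap of a single exon. The sources used here give no strand setting for the counting. Gm15270 itself had 6.5 to 39.3 normalized counts.

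Ankrd1 encodes a nuclear ankyrin repeat protein best known from heart muscle (chromosome 19, 36111961 to 36120099, minus strand). It had 345.4, 131.7, 204.3 and 151.7 in C3-/- glycerol libraries, against 660.8, 1331.7, 658.8 and 1263.2 in WT glycerol libraries. In PBS libraries it had 43.83, 49.59, 40.99 and 24.75 under the C3-/- label, against 89.05, 108.5, 127.9 and 142.5 in WT. The mean was lowest in C3-/- PBS libraries, followed by WT PBS, C3-/- glycerol and WT glycerol libraries. Of these neighbours only WT PBS and C3-/- glycerol overlapped, through C3-/- glycerol replicate 2 and WT PBS replicate 4.

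Tgfb1 encodes the TGF-beta1 ligand (chromosome 7, 25687002 to 25705077, plus strand). It had 455.4, 320.5, 190.2 and 273.7 in C3-/- glycerol libraries, against 631.9, 933.1, 442.3 and 729.4 in WT glycerol libraries. In PBS libraries it had 197.0, 243.6, 242.6 and 276.3 under the C3-/- label, against 236.1, 250.2, 292.7 and 239.2 in WT. The WT glycerol libraries lay above every PBS library, and C3-/- glycerol replicate 1 just reached into their range.

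Tgfb2, a second ligand gene (chromosome 1, 186622792 to 186705989, minus strand), was low throughout. It had 37.94, 33.54, 15.35 and 53.94 in C3-/- glycerol libraries, against 102.2, 212.0, 61.07 and 37.25 in WT glycerol libraries. In PBS libraries it had 65.93, 68.56, 65.87 and 40.87 under the C3-/- label, against 68.64, 61.31, 86.22 and 89.19 in WT. The lowest value of each glycerol group was in a list 2 library, and the groups overlapped. An antisense gene with an exon that shares 80 bases with the exons of Tgfb2 was not analysed here.

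The receptor genes Tgfbr1 (chromosome 4, 47353222 to 47414931) and Tgfbr2 (chromosome 9, 116084293 to 116175360) encode the pair of kinases that bind the ligands and pass the signal on. Tgfbr1 had 1180.7, 2710.8, 1210.1 and 3652.6 in C3-/- glycerol libraries, against 4728.5, 5176.9, 3913.8 and 1491.5 in WT glycerol libraries. Tgfbr2 had 983.2, 2372.3, 844.1 and 2716.1 in C3-/- glycerol libraries, against 5422.1, 4240.8, 5062.9 and 1380.0 in WT glycerol libraries. In both groups the low values were those of list 2. Over the glycerol libraries Tgfbr1 was 1180.7 to 1491.5 in the 3 of list 2, against 2710.8 to 5176.9 in the 5 of list 1, and Tgfbr2 was 844.1 to 1380.0 against 2372.3 to 5422.1. In PBS libraries Tgfbr1 was narrow, at 1929.1 to 2301.9 under the C3-/- label, against 2350.4 to 2720.8 in WT. Tgfbr2 was 1867.6 to 2446.0 in C3-/- PBS libraries, against 2524.8 to 2792.6 in WT PBS libraries. The PBS groups did not overlap for either receptor gene.

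Smad7 encodes the inhibitory SMAD that recruits ubiquitin ligases to the receptors (chromosome 18, 75367529 to 75395935, plus strand). It had 433.9, 1020.0, 400.9 and 649.0 in C3-/- glycerol libraries, against 640.6, 693.2, 747.6 and 300.4 in WT glycerol libraries. In PBS libraries it had 646.1, 721.7, 866.7 and 760.1 under the C3-/- label, against 768.3, 687.3, 816.9 and 929.1 in WT. Here too the list 2 libraries (300.4 to 433.9) lay below the other glycerol libraries (640.6 to 1020.0).

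**Figure D2:**
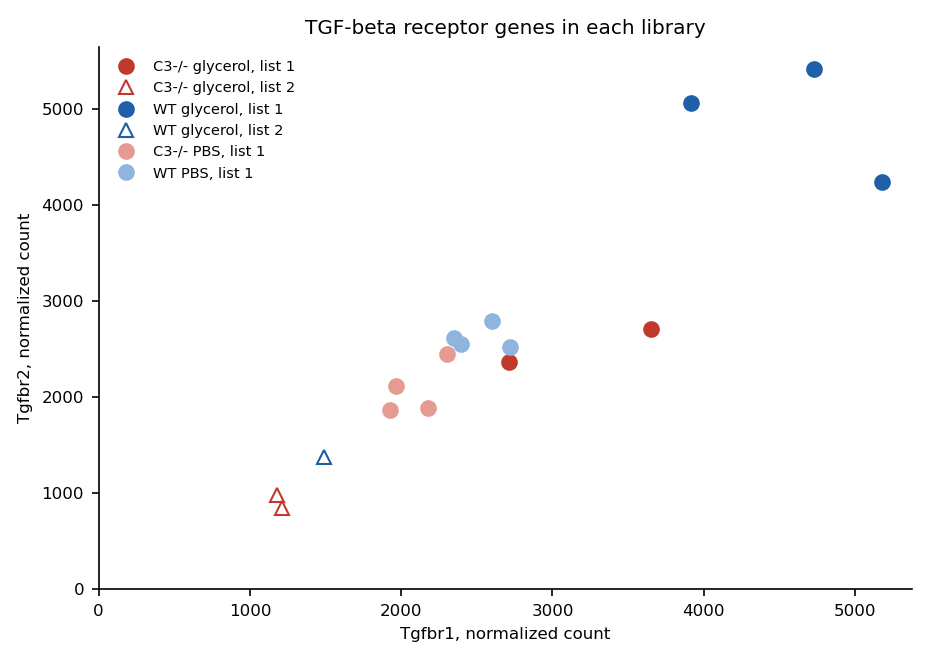
Normalized counts of Tgfbr1 (x axis) and Tgfbr2 (y axis) in each of 16 libraries, coloured by group, with open triangles for list 2. The 3 list 2 libraries lie at the low end for both genes, the 3 WT glycerol libraries of list 1 at the high end, and Pearson's r over the 16 libraries was 0.95, given as a description.

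The comparison of glycerol with PBS within each genotype addresses the response to rhabdomyolysis. Ankrd1 rose in both genotypes, to 208.3 ± 96.41 in C3-/- glycerol kidney, against 39.79 ± 10.64 in C3-/- PBS kidney (SD, n = 4 each), and to 978.6 ± 369.2 in WT glycerol kidney, against 117.0 ± 23.28 in WT PBS kidney. Tgfb1 rose in WT, to 684.2 ± 204.3 in glycerol kidney, against 254.5 ± 26.13 in PBS kidney. In kidneys labelled C3-/- Tgfb1 was 310.0 ± 110.9 after glycerol and 239.9 ± 32.63 after PBS and was not called. Ccn2 was called in neither genotype. On the log2(normalized count + 1) scale, limma gave Ankrd1 a change of 2.30 ± 0.34 (SE) in C3-/- (4.92-fold, adjusted p = 0.00112) and 2.99 ± 0.34 in WT (7.97-fold, adjusted p = 3.07e-05). Glycerol values were above the PBS mean in 4 of 4 libraries in each genotype. For Tgfb1 the change was 0.31 ± 0.26 in C3-/- (95% interval -0.24 to 0.86, adjusted p = 0.434) and 1.38 ± 0.26 in WT (2.6-fold, adjusted p = 0.00143). In C3-/- 1 of the 8 members was called higher and none lower, where 3.68% of all 18035 tested genes were higher and 1.96% lower. In WT 2 of 8 were higher and none lower, where 12.5% of genes were higher and 13.3% lower. Glycerol and PBS values did not overlap for Ankrd1 in C3-/- and for Ankrd1 and Tgfb1 in WT, which held in the higher direction for 9.53% and 18.2% of genes. Of 7 proximal tubule markers 6 were called lower in WT (median -2.09) and 1 in C3-/- (median -1.33). Of 7 loop, distal tubule and collecting duct markers 3 were lower in WT and 1 in C3-/-. In WT 3 of 7 endothelial and 3 of 7 fibroblast and pericyte markers were lower, and none in C3-/-. Macrophage markers gave 2 higher and 1 lower in WT and 1 higher in C3-/-. No podocyte marker was called. The part of these markers was not tested.

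The matricellular genes gave smaller differences. In C3-/- Ccn1 was 1219 ± 300.4 after glycerol and 657.5 ± 279.5 after PBS, a log2 difference of 0.95 ± 0.31 that missed the threshold (adjusted p = 0.0814). The authors' deposited table called it, with a log2 fold change of 0.89 and an adjusted p of 0.0427 (10.4% of its genes higher), and so did the fit on list 1 (1.06, adjusted p = 0.0197) and the fits without C3-/- glycerol replicate 3, C3-/- PBS replicate 3 or WT glycerol replicate 4. In WT Ccn1 was 2319 ± 927.3 after glycerol and 1766 ± 270.7 after PBS (0.33 ± 0.31, 95% interval -0.32 to 0.98). Ccn2 was 1373 ± 358.3 after glycerol and 1582 ± 179.1 after PBS in C3-/- (-0.24 ± 0.26, interval -0.78 to 0.31). In WT Ccn2 was 4575 ± 1853 after glycerol and 3609 ± 675.5 after PBS (0.28 ± 0.26, interval -0.27 to 0.83). Tgfb2 and Smad7 were not called in either genotype.

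The call of the receptor genes depended on list 2. With all libraries the log2 differences of Tgfbr1 were -0.11 ± 0.39 in C3-/- and 0.46 ± 0.39 in WT, and those of Tgfbr2 were -0.44 ± 0.42 and 0.44 ± 0.42 in the same order, with no call. Within list 1, where 2 C3-/- and 3 WT glycerol libraries remain, Tgfbr1 was called higher at 0.59 (adjusted p = 0.00812) in C3-/- and 0.87 (adjusted p = 6.88e-05) in WT. Tgfbr2 was called higher there in WT (0.90, adjusted p = 2.36e-05). In C3-/- the sign turned for Tgfbr2 (0.30 in list 1, adjusted p = 0.102) and for Smad7, which was -0.35 with all libraries and 0.13 in list 1 (adjusted p = 0.639), with no call. In list 1 the calls among all genes were also more frequent, with 12.4% higher in C3-/- and 26.7% higher in WT, against 3 and 4 of the 8 members. Cell type markers called higher and lower in list 1 in C3-/- were 0 and 3 for proximal tubule. Those of the loop, distal tubule and collecting duct gave 0 and 2. Endothelial markers gave 0 and 3, fibroblast and pericyte markers 0 and 1, macrophage markers 4 and 1 and podocyte markers 0 and 1. WT gave 0 and 7, 0 and 5, 0 and 3, 1 and 4, 4 and 2 and 1 and 0 in this order. The shares of all genes, either direction, were 23% in C3-/- and 55.6% in WT. The part of list 2 in the spread of the glycerol groups was not tested further.

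The comparison of genotypes after glycerol addresses how the C3-/- label bears on the injured kidney. Ccn2, Ankrd1 and Tgfb1 were lower in C3-/- than in WT. Ccn2 averaged 1373 ± 358.3 in C3-/- glycerol kidney, against 4575 ± 1853 in WT glycerol kidney, a log2 difference of -1.70 ± 0.26 (0.308-fold, limma adjusted p = 0.00061). Ankrd1 differed by -2.25 ± 0.34 (0.21-fold, adjusted p = 0.000588) and Tgfb1 by -1.16 ± 0.26 (0.448-fold, adjusted p = 0.00899). The 3 calls of 8, all lower, stand beside 4.85% of all tested genes called lower and 6.38% called higher. Values of Ccn1, Ccn2 and Ankrd1 did not overlap between the genotypes, which held in the lower direction for 5.07% of all tested genes. Tgfb1 was not called in a fit on the glycerol libraries alone (adjusted p = 0.154).

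The next 3 members lay just short of the threshold. Ccn1 differed by -0.89 ± 0.31 (adjusted p = 0.0779), Tgfb2 by -1.36 ± 0.46 (adjusted p = 0.0744) and Tgfbr2 by -1.23 ± 0.42 (adjusted p = 0.0737). The authors' deposited table called all 3 lower in C3-/-, at log2 fold changes of -0.92 for Ccn1 (adjusted p = 0.0323), -1.62 for Tgfb2 (0.00372) and -1.22 for Tgfbr2 (0.021). It listed 6 of the 8 members as lower, where 7.25% of its genes were. Within list 1, 6 of 8 were called lower (all genes 14.6%), and these were Ccn2, Ankrd1, Tgfb1, Tgfb2 (-1.35, adjusted p = 0.0302), Tgfbr1 (-0.54, adjusted p = 0.014) and Tgfbr2 (-0.94, adjusted p = 0.000299). Ccn1 was -0.53 there with an adjusted p of 0.209, but was called with list and Ddx3y signal as covariates (-1.28, adjusted p = 0.00507). With these covariates 6068 of all tested genes were called, against 2025 without them. Leaving out WT glycerol replicate 4 alone was enough for calls of Tgfb2, Tgfbr1 and Tgfbr2 (6 members), and leaving out C3-/- glycerol replicate 4 for Tgfb2 and Tgfbr2. Over all tested genes, 1385 to 4396 were called with a library left out. Smad7 averaged 626 ± 284.8 in C3-/- glycerol kidney and 595.4 ± 201.5 in WT glycerol kidney (0.05 ± 0.30, interval -0.60 to 0.70).

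In bulk kidney, fewer cells of a type and less RNA per cell cannot be told apart. Summed over 7 proximal tubule markers, C3-/- glycerol libraries had 51543 to 241205 normalized counts and WT glycerol libraries 18928 to 88012, with none called. The 7 markers of the loop, distal tubule and collecting duct summed to 97833 to 314362 and 53895 to 155388 in the same order, with 3 called higher. The 7 endothelial markers summed to 7834 to 11524 and 7741 to 13348, with none called. The 7 fibroblast and pericyte markers summed to 3984 to 6959 in C3-/- glycerol libraries and 4699 to 6366 in WT glycerol libraries, with 1 called higher and 1 lower. The 7 macrophage markers summed to 3167 to 5162 and 3197 to 5143 in the same order, with 1 called higher and 2 lower. Csf1r was the higher one, with 1470.1 to 3473.0 in C3-/- against 760.7 to 1308.1 in WT. Itgam (7.507 to 61.32 against 121.5 to 376.9) and Mrc1 (92.91 to 165.0 against 145.2 to 205.2) were lower. The macrophage sums thus join genes of opposite direction. Of 8 skeletal muscle markers 3 were analysed here, and they summed to 43.21 to 219.7 in C3-/- glycerol libraries and 23.86 to 122.8 in WT glycerol libraries. Actn3 was called higher in C3-/- (3.75 ± 0.66, adjusted p = 0.00201) and was listed at 0 in WT glycerol replicate 4. Tnni2 leaned the other way, with 4.02 to 11.78 in C3-/- and 4.863 to 69.89 in WT. Mylpf had 15.75 to 85.83 in C3-/- and 11.68 to 52.91 in WT, and neither of these was called. The 5 podocyte markers summed to 5829 to 14398 and 5444 to 14916 in the same order, with none called. In list 1 the calls, higher and lower, were 1 and 0 for proximal tubule, 5 and 0 for loop, distal tubule and collecting duct, 2 and 2 for endothelial, 1 and 3 for fibroblast and pericyte, 1 and 5 for macrophage, 1 and 0 for podocyte and 1 and 0 for skeletal muscle markers. Of all tested genes, 6.38% were called higher and 4.85% lower with all libraries. In list 1, 30.1% of all tested genes were called in either direction and 14.6% lower. No marker was at 0 in a whole group. Their part in the differences of the 8 genes was not tested.

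The comparison of genotypes after PBS addresses whether the genes differ before injury. Ccn1, Ccn2 and Ankrd1 were lower in uninjured C3-/- kidney, and the ligand genes, the receptor genes and Smad7 were not called with all libraries. A fit on the PBS libraries alone also called Tgfbr1 and Tgfbr2 lower, with 4579 of all tested genes called in either direction. Ccn1 averaged 657.5 ± 279.5 in C3-/- PBS kidney, against 1766 ± 270.7 in WT PBS kidney, a log2 difference of -1.51 ± 0.31 (0.352-fold, limma adjusted p = 0.0153). Ccn2 differed by -1.18 ± 0.26 (0.442-fold, adjusted p = 0.023) and Ankrd1 by -1.55 ± 0.34 (0.341-fold, adjusted p = 0.0231). With all libraries the 3 calls of 8, all lower, stand beside 1.19% of all tested genes called lower and 1.04% called higher. Tgfb1 was 239.9 ± 32.63 in C3-/- PBS kidney and 254.5 ± 26.13 in WT PBS kidney, with an interval of -0.64 to 0.46 for the log2 difference. Values did not overlap for 5 of the 8 members (these 3 genes and both receptor genes), and the share of all tested genes lower without overlap was 13.1%.

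These calls lay close to the threshold. Leaving out C3-/- PBS replicate 1, WT PBS replicate 3 or WT PBS replicate 4 ended all 3, and over the libraries left out in turn the adjusted p reached 0.066 for Ccn1, 0.0969 for Ccn2 and 0.0903 for Ankrd1, with log2 differences of -1.76 to -1.28, -1.25 to -1.06 and -1.68 to -1.35. The call of Ccn1 also ended without C3-/- PBS replicate 2. That of Ankrd1 ended without C3-/- PBS replicates 3 or 4 or WT PBS replicate 2, and that of Ccn2 without any PBS library other than WT PBS replicate 1. Within list 1 alone the adjusted p was 0.00116 for Ccn1, 0.00167 for Ccn2 and 0.0018 for Ankrd1, and Tgfbr2 was also called lower (adjusted p = 0.032), with 10% of all genes lower. All PBS libraries are in list 1, so the log2 differences are the same there and only the estimate of the spread changed. The C3-/- PBS library with Ddx3y signal, replicate 4, had the lowest Ccn1, Ccn2 and Ankrd1 of its group, at 382.3, 1318.6 and 24.75. With list and Ddx3y signal as covariates the log2 differences were -1.98 for Ccn1, -1.55 for Ccn2 and -1.94 for Ankrd1 (adjusted p = 0.00261, 0.00164 and 0.00238, with 2.11% of all genes lower). The fibroblast and pericyte markers summed to 4836 to 5586 in C3-/- PBS libraries and 6197 to 8474 in WT PBS libraries, and the endothelial markers to 12920 to 13767 and 14242 to 15184, with no marker of either list called with all libraries. In list 1, 3 fibroblast and pericyte markers were called lower and 1 higher, and 2 endothelial markers lower. Of all tested genes, 19.3% were called in list 1 in either direction. The macrophage markers summed to 3005 to 4177 in C3-/- PBS libraries and 3522 to 3831 in WT PBS libraries, with none called with all libraries and a median log2 difference of -0.69. Of these 7, Adgre1, Itgam, C1qa, Mrc1 and Lyz2 were lower in C3-/- without overlap and Csf1r higher without overlap, and these 6 were called in list 1. Of the other marker lists, 1 podocyte marker was higher and 1 marker of the loop, distal tubule and collecting duct lower in list 1. Their part in the lower Ccn1, Ccn2 and Ankrd1 was not tested.

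The interaction asks whether the glycerol response itself differed between the genotypes. No member was called by limma, and 1 of 8 had an unadjusted p below 0.05. That was Tgfb1, whose log2 response was lower in C3-/- than in WT (difference -1.07 ± 0.37, interval -1.85 to -0.29, unadjusted p = 0.0106, adjusted p = 0.258). Among all tested genes 0.438% were called. Ankrd1 differed by -0.69 ± 0.48 (interval -1.71 to 0.32) and Ccn2 by -0.52 ± 0.36 (-1.29 to 0.25). For Ccn1 the difference was 0.62 ± 0.43 (-0.30 to 1.54). Within list 1 Tgfbr2 was called at -0.60 (adjusted p = 0.0367; 5.42% of all genes lower), and Tgfb1 stood at -1.02 (adjusted p = 0.0548). The log2 differences of Ccn2 and Ankrd1 between C3-/- and WT were thus -1.70 and -2.25 after glycerol, and -1.18 and -1.55 after PBS. For Tgfb1 they were -1.16 after glycerol and -0.09 after PBS.

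**Figure D3:**
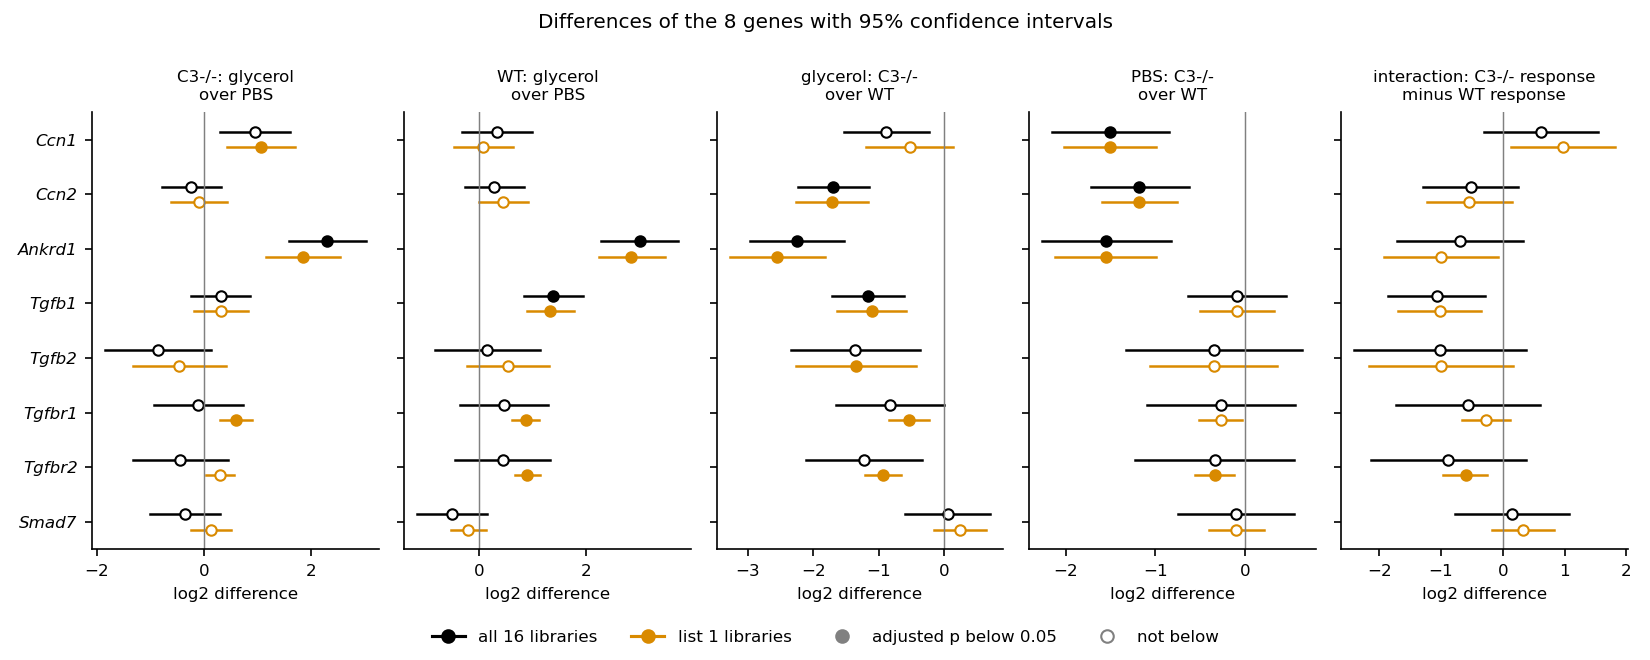
Log2 differences of the 8 genes with 95% intervals in 5 comparisons (panels), in black for all 16 libraries and orange for the 13 of list 1, filled where the limma adjusted p was below 0.05. Ankrd1 is the member called in 4 of the 5 panels, and the receptor genes are called only in list 1.

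Other genes of the 2 pathways were read from lists of known members, and their counts stand beside the shares of all tested genes called. In list 1 alone, 23% of all tested genes were called in either direction after glycerol in C3-/-, 55.6% after glycerol in WT, 30.1% between genotypes after glycerol and 19.3% between genotypes after PBS. With a library left out, 492 to 2780 of all tested genes were called after glycerol in C3-/- and 3446 to 5360 in WT. Between genotypes the range was 1385 to 4396 after glycerol and 220 to 609 after PBS.

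Among 17 further YAP/TEAD target genes, 5 rose after glycerol in C3-/- (3.68% of all genes higher) and 5 in WT (12.5% higher), and none fell in either. The list medians were -0.02 and 0.04, against -0.06 and -0.11 over all tested genes. Gadd45a, a growth arrest gene, rose by 2.12 ± 0.29 in C3-/- and 1.96 ± 0.29 in WT. F3, which encodes tissue factor, rose by 1.56 ± 0.28 and 2.21 ± 0.28 in the same order. Dock5, a guanine nucleotide exchange factor, rose by 1.01 ± 0.17 in C3-/- and 0.86 ± 0.17 in WT, and Myof, a membrane repair protein gene, by 1.47 ± 0.33 in C3-/- and 2.32 ± 0.33 in WT. In list 1, 5 rose in C3-/-, while 6 rose and 2 fell in WT. Between the genotypes after glycerol 3 of 17 were lower in C3-/- (4.85% of all genes lower) and none higher (median -0.33, all genes 0.04), and in list 1, 4 were lower and 2 higher. That count was 1 without C3-/- glycerol replicate 3 or WT glycerol replicate 2 and 5 without C3-/- glycerol replicate 1. Nt5e, which encodes the ectonucleotidase CD73, averaged 1325 ± 194.8 in C3-/- glycerol kidney and 3588 ± 704.8 in WT glycerol kidney (-1.43 ± 0.17, adjusted p = 5.77e-05). Axl, a receptor tyrosine kinase gene, differed by -0.80 ± 0.21, a call that ended without C3-/- glycerol replicate 3 or WT glycerol replicates 1 or 2. After PBS 2 of 17 were lower in C3-/- (1.19% of all genes lower), and 4 in list 1. These 2 were Nt5e (-1.25 ± 0.17, adjusted p = 0.000417), with 1472 ± 143.6 in C3-/- and 3509 ± 437.5 in WT, and Igfbp3, an IGF-binding protein gene (-1.36 ± 0.32, adjusted p = 0.0346), whose call ended without any PBS library other than C3-/- PBS replicate 4. The Igfbp3 call also ended with a replicate block and with list and Ddx3y signal as covariates. C3-/- PBS replicate 4, which has Ddx3y signal, had 2365.2, against 1794.9 to 1848.7 in the others of its group. WT PBS libraries had 4392.4 to 6326.7.

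Of the 18 genes of the Hippo cascade and its cofactors none was called after glycerol in C3-/- (all genes 3.68% higher, 1.96% lower), and 1 rose in list 1. Vgll4, a TEAD cofactor gene, had the smallest p at -1.70 ± 0.85 (adjusted p = 0.227), but stood at -0.1 in list 1 (adjusted p = 0.665). Its low values were 99.63 and 86.03 in C3-/- glycerol replicates 1 and 3 (list 2), against 821.3 and 884.7 in replicates 2 and 4. In WT 2 rose (all genes 12.5%), Tead4 by 0.87 ± 0.27 and the kinase gene Stk4 by 0.37 ± 0.12, and 8 rose in list 1. The WT count was 0 without WT glycerol replicate 2 or WT PBS replicates 1, 2 or 3, and 1 without WT glycerol replicate 1, WT PBS replicate 4 or C3-/- PBS replicates 1, 2 or 3. After glycerol Wwtr1, which encodes TAZ, was lower in C3-/-, with 2030 ± 617.1 against 3857 ± 929.8 in WT (-0.94 ± 0.23, adjusted p = 0.0131). It was 1 of 18 called there (all genes 4.85% lower), but 7 were called without WT glycerol replicate 4. Over all tested genes, 1385 to 4396 were called in this comparison with a library left out. In list 1, 7 of the 18 were called (all genes 30.1%), 6 of them lower (all genes 14.6%). After PBS none was called with all libraries, and 1 was higher and 1 lower in list 1.

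Among 13 genes of TGF-beta ligands and their activation, 1 rose after glycerol in C3-/- (all genes 3.68%), while 4 rose and 1 fell in WT (12.5% and 13.3%). In list 1, 1 rose and 1 fell in C3-/-, and 6 rose and 4 fell in WT. Gdf11, a ligand of the wider family, rose by 0.97 ± 0.26 in C3-/-, a call with an adjusted p of 0.0391 that ended without any 1 of 11 of the 16 libraries, all but C3-/- glycerol replicate 2, WT glycerol replicates 2, 3 and 4 and C3-/- PBS replicate 4. The C3-/- count was 2 without C3-/- glycerol replicate 2 or WT glycerol replicate 4. Inhba, which encodes the activin A subunit, rose by 2.48 ± 0.52 in WT, and Lrrc32, a cell-surface docking protein for latent TGF-beta, by 1.69 ± 0.36. The WT count was 3 without WT glycerol replicate 4 or WT PBS replicates 2 or 3. After glycerol 3 of 13 were lower in C3-/- (all genes 4.85%) and none higher, with 6 lower in list 1, 5 called without C3-/- glycerol replicate 1 and 7 without WT glycerol replicate 4. Inhba averaged 25.53 ± 14.61 in C3-/- and 192.2 ± 110.5 in WT (-2.91 ± 0.52, adjusted p = 0.00203), and Ltbp2, a latent TGF-beta binding protein gene, differed by -2.43 ± 0.44. After PBS the related Ltbp1 was the 1 of 13 lower in C3-/- (-0.91 ± 0.21, adjusted p = 0.0334), a call that ended without any PBS library other than C3-/- PBS replicate 3, and in list 1, 3 were lower and 1 higher.

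Of 9 other receptor and co-receptor genes none was called in C3-/- after glycerol (1 lower in list 1, and 2 called without WT glycerol replicate 4). In WT 2 fell (all genes 13.3%), the co-receptor gene Tgfbr3 by 1.28 ± 0.29 on the log2 scale and Acvr1b, an activin receptor gene, by 0.81 ± 0.18, and in list 1, 4 fell and 1 rose. With all libraries none of the 9 was called between the genotypes, after glycerol or after PBS. In list 1, 3 were higher and 3 lower in C3-/- after glycerol, and 1 was higher and 2 lower after PBS. The count after glycerol was 1 without C3-/- glycerol replicate 1 and 3 without WT glycerol replicate 4.

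Of 13 SMAD and inhibitor genes, 1 rose in C3-/- after glycerol (all genes 3.68%), and 4 rose and 1 fell in WT (12.5% and 13.3%). In list 1, 4 rose in C3-/-, while 6 rose and 2 fell in WT. Tgif1, a SMAD corepressor gene, rose by 1.23 ± 0.27 in C3-/- and 1.98 ± 0.27 in WT. The C3-/- count was 0 without C3-/- PBS replicate 3 and 2 without WT glycerol replicate 4, and the WT count was 3 without WT PBS replicates 2 or 4. Smad3, which carries the TGF-beta signal to the nucleus, averaged 1306 ± 90.55 in C3-/- glycerol kidney and 2242 ± 331.4 in WT glycerol kidney, and 1565 ± 75.66 in C3-/- PBS kidney and 1321 ± 99.18 in WT PBS kidney. It rose in WT by 0.75 ± 0.13 and was lower in C3-/- after glycerol (-0.77 ± 0.13, adjusted p = 0.00138). Of the genes in the 7 pathway lists, Smad3 was the 1 called in the interaction with all libraries, at -1.02 ± 0.18 (adjusted p = 0.0214; all genes 0.438%). That call ended without WT glycerol replicate 1, C3-/- PBS replicates 1, 2 or 3 or WT PBS replicates 1, 2 or 4 (highest adjusted p = 0.0728). In list 1 the interaction was called lower for 2 Hippo, 2 ligand, 2 SMAD and inhibitor and 6 TGF-beta target genes (all genes 5.42%), and 1 TGF-beta target gene was called without C3-/- glycerol replicate 1, WT glycerol replicate 4 or C3-/- PBS replicate 4. Smad6, an inhibitory SMAD gene like Smad7, was higher in C3-/- after glycerol (0.76 ± 0.22, adjusted p = 0.0375). It was 1 of 3 called there, with 2 lower (all genes 6.38% higher and 4.85% lower), and its call ended without any 1 of 13 of the 16 libraries, all but C3-/- glycerol replicate 4, WT glycerol replicate 4 and C3-/- PBS replicate 4. The count of 3 was 1 without C3-/- glycerol replicates 2 or 3 or WT glycerol replicates 1 or 2 and 6 without WT glycerol replicate 4, and in list 1, 1 was higher and 6 lower. After PBS none was called with all libraries and 2 were lower in list 1.

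The TGF-beta target list had its highest count of calls in the comparison of genotypes after glycerol. Of its 16 genes 10 were lower in C3-/- (all genes 4.85%) and none higher, with a list median of -1.72, against 0.04 over all tested genes. In list 1, 12 were lower (all genes 14.6%), and with a library left out 9 to 12 were called. Fn1, which encodes fibronectin, averaged 409.8 ± 54.44 in C3-/- and 1565 ± 395.8 in WT (-1.91 ± 0.24, adjusted p = 0.000147). Lox, a collagen cross-linking enzyme gene, had 40.0 ± 15.01 in C3-/- and 298.6 ± 111.8 in WT (-2.89 ± 0.35), and Tgfbi, a TGF-beta induced matrix protein gene, 332.0 ± 116.3 in C3-/- and 1412 ± 399.1 in WT (-2.10 ± 0.24). After glycerol 2 of the 16 rose (all genes 3.68%) and 1 fell (1.96%) in C3-/- (median 0.15), and 8 rose (12.5%) and none fell in WT (median 0.94). In list 1, 3 rose and 4 fell in C3-/-, and 11 rose in WT. Timp1, a metalloproteinase inhibitor gene, rose by 4.11 ± 0.73 in C3-/- and 8.38 ± 0.73 in WT. Lox fell by 1.28 ± 0.35 on the log2 scale in C3-/- (adjusted p = 0.0481), a call that ended without any 1 of 13 of the 16 libraries, all but C3-/- glycerol replicate 4 and WT glycerol replicates 2 and 4. The C3-/- count was 1 without C3-/- PBS replicate 1. After PBS Tgfbi was the 1 of 16 called lower in C3-/- (-1.07 ± 0.24, adjusted p = 0.0317; all genes 1.19%), and in list 1, 7 were lower and 1 higher. The PBS count was 0 without C3-/- PBS replicates 1, 2 or 3 or WT PBS replicates 2, 3 or 4, 3 without C3-/- glycerol replicate 1, and 2 without C3-/- glycerol replicate 3 or WT glycerol replicate 1.

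Of the 2 other CCN genes tested, Ccn4 rose by 1.57 ± 0.39 in C3-/- (adjusted p = 0.0284) and 1.75 ± 0.39 in WT. The C3-/- call ended without any C3-/- library other than C3-/- glycerol replicate 3, and in list 1 it stood. Between genotypes neither was called with all libraries, while 1 was called after glycerol without WT glycerol replicate 4 and 1 was lower after PBS in list 1.

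Fits on the compared groups alone gave other counts. After glycerol in C3-/-, 308 of all tested genes were called there, with 3 of the YAP/TEAD targets and none of the other 6 lists. After glycerol in WT, none of the Hippo genes and 3 of the SMAD and inhibitor genes were called. Between genotypes after glycerol, 297 of all tested genes were called, with 7 of the TGF-beta targets, 1 of the YAP/TEAD targets and none of the other 5 lists. Between genotypes after PBS, 4579 were called, with 10 of the TGF-beta targets, 5 each of the YAP/TEAD target, Hippo, ligand and SMAD lists, 3 of the receptor genes and 1 other CCN gene.

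**Figure D4:**
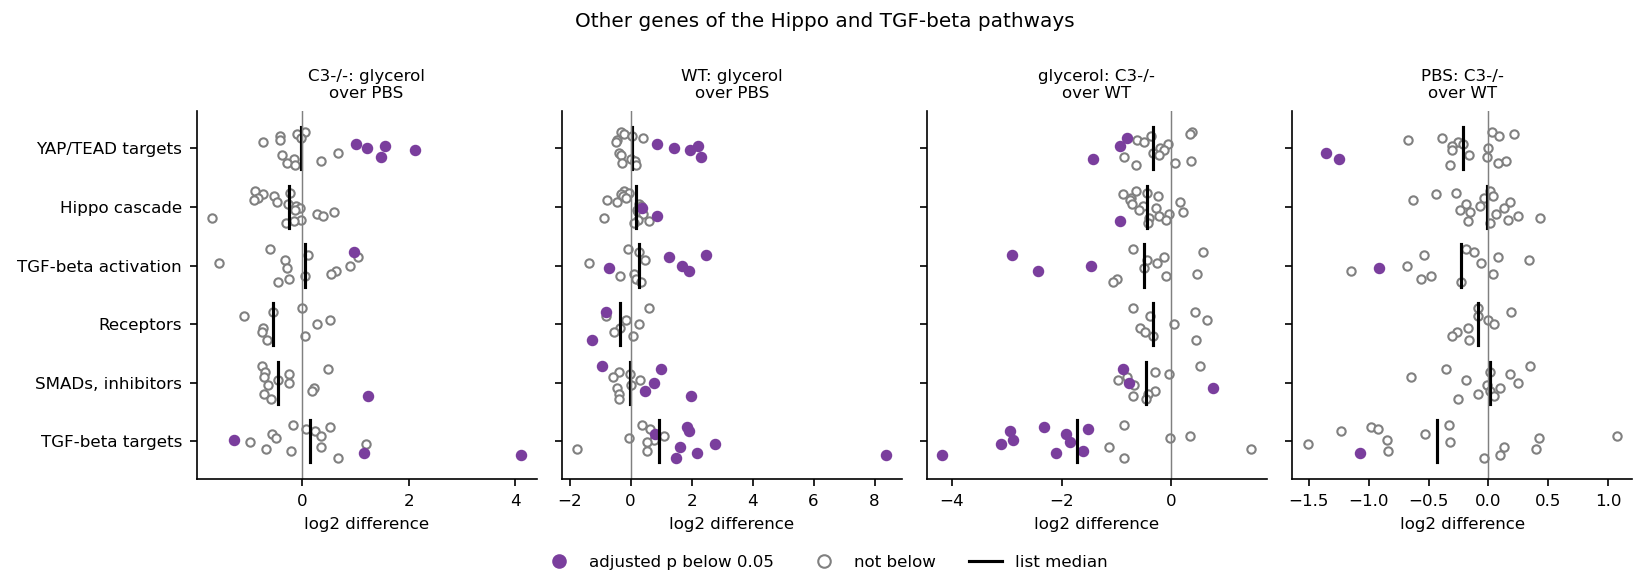
Log2 differences of the other pathway genes, 1 point per gene, by list (y axis) and comparison (panels), filled where the limma adjusted p was below 0.05, with a bar at each list's median. The TGF-beta target genes spread to the left in the comparison of genotypes after glycerol, with a median of -1.72.

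The genes most like each member over the 16 libraries were found by Pearson's r of log2 values among 12620 genes averaging 50 or more normalized counts. They are a description, since the libraries share groups and lists. For Ccn1 they were Clca3a1 (r = 0.921), Kif23 (0.918) and the AP-1 gene Jun (0.912). For Ccn2 they were the calcium channel subunit gene Cacna2d1 (0.949), Dubr (0.937) and Qpctl (0.937). For Ankrd1 they included Samd5 (0.959) and Tsc22d1 (0.957). For Tgfb1 they were Emp2 (0.959), Rcn1 (0.958) and Psme2b (0.949), and for Tgfb2 they were Rbms1 (0.932), the myelin protein gene Pmp22 (0.922) and Prkch (0.915).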

How the data were processed

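The files hold 1 matrix of gene-level signal, in which the deposited values are read counts normalized by the authors with DESeq2, for 16 libraries of mouse kidney. Tools named in the submitters' processing notes are STAR 2.7.1, DESeq2 and R 3.6.1, with build GRCm38. Gene models are those of Ensembl release 96, per the file headers. The sources used here name neither the counting program nor its strand setting. The authors also deposited 3 tables of comparisons with log2 fold changes, a test score (Wald statistic), p-values and adjusted p-values.

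Values were not whole multiples of a step (1.5% to 2.18% per library within 0.01), so depth is unknown, no count model was run, and precision rests on the spread of 4 libraries per group. log2(value + 1) of 18035 genes with at least 10 in 4 libraries was fitted with limma 3.58.1 (R 4.3.3, two-sided, mean-variance trend, 1 coefficient per group), with Benjamini-Hochberg adjustment over those genes and calls at 0.05. Folds on this scale understate changes of low genes. The code was tested on simulated data. Positions and exon lengths are from GENCODE M21 (GRCm38). Promoters are RefSeq's, and Ccn2 and Smad7 are named only. The members, gene lists and tests were chosen with earlier results of these data known. Of each list, up to 3 genes with the smallest p among those called are named, or the 1 with the smallest p. Alternatives were another pseudocount, other filters, quantile normalization, the compared groups alone, array weights, a replicate block, list 1 alone, list and Y-linked covariates, and each library left out. The listed genes Foxf2, Ccn6, Acta1, Ckm, Myh4, Mb and Tnnt3 were not analysed here. Of the genes most like each member, 1 is not reported here.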

Additional observations from a re-analysis of the deposited data

Results flagged for a closer look

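Tgfb2 in C3-/- PBS replicate 4 had a normalized count of 40.87, apart from the other 3 libraries of its group (65.87 to 68.56). The gap was a larger part of the group's range than Dixon's 95% critical value for 4 samples allows. Of 32 groups of values checked (8 genes in 4 groups) this was the 1 that stood out, and chance gives about 1 in 20.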

How the results depend on the processing

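The number of the 8 genes called depended most on the 3 list 2 libraries and on how the spread was estimated. After glycerol in C3-/- it was 1, but 4 with array weights, 3 in list 1 alone and 3 with list and Y-linked covariates (1 to 2 with a library left out). In WT it was 2, but 5, 4 and 4 under the same settings (2 with a library left out). Between genotypes after glycerol it was 3, but 6, 6 and 7 (3 to 6). Between genotypes after PBS it was 3, but 5 with array weights and 5 in a fit on the compared groups only (0 to 3). For the interaction it was 0, but 4 with array weights and 1 in list 1 (0 with a library left out). The log2 difference of Tgfbr1 after glycerol in C3-/- was -0.11 but turned positive with array weights (0.48), in list 1 (0.59) and with covariates (0.59). The estimation of array weights stopped before its tolerance was reached.

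Replicate numbers do not pair the libraries (correlations of same-numbered deviations -0.69 to 0.38). With a replicate block 1 member was called between genotypes after PBS in place of 3, and the calls of Smad3 in the interaction and Ccn4 after glycerol in C3-/- ended. Those of Stk4 after glycerol in WT, Lox after glycerol in C3-/- and Smad6 between genotypes after glycerol ended too. So did those of Igfbp3, Ltbp1 and Tgfbi between genotypes after PBS. Genes called over all tested fell to 632 from 1016 after glycerol in C3-/- and to 41 from 79 for the interaction.

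Over all genes, calls after glycerol in C3-/- numbered 1016, but 308 in the compared groups, 5589 with array weights, 4142 in list 1 and 3393 with covariates (492 to 2780 with a library left out). In WT they numbered 4666, but 10902, 10028 and 8886 under the last 3 settings. Between genotypes after glycerol they numbered 2025, but 297, 6439, 5432 and 6068 (1385 to 4396). After PBS they numbered 402, but 4579, 6869, 3481 and 628, and 233 with a mean of at least 50 (220 to 609). For the interaction they numbered 79, but 141 with a pseudocount of 8, 3225 with array weights, 1858 in list 1 and 1580 with covariates (38 to 225). Of 992 alternative values for single members, 40 were newly called in the same direction and 20 lost the call. The sign changed in 19, of which 3 were called under the alternative (Tgfbr1, above) and 16 were called neither there nor with all libraries. The interaction was not fitted on compared groups only.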
